A study of Rattus norvegicus with 6 samples.

Results

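Histone lactylation is the attachment of a lactyl group, derived from lactate, to lysines of the histone tails, and it was described as a mark found at active promoters and enhancers. H3K9 lies in the tail of histone H3 and H4K8 in the tail of histone H4, so H3K9la and H4K8la are carried by different histones of the same nucleosome. Both lysines are also known acetylation sites. Tenocytes are the fibroblast-like cells of tendon that make and maintain its collagen matrix.

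The H3K9la and H4K8la peaks of untreated rat tenocytes are compared here. Their 2 peak lists held 61850 H3K9la peaks and 61347 H4K8la peaks, which is 123197 of the 315825 peaks in the 6 lists of the series. Each list came from 1 CUT&Tag library, an assay in which an antibody guides the pA-Tn5 transposase to cut and tag the DNA around the mark. The cells were wild-type tendon cells grown without added lactate. The other 4 libraries were H4K16la from untreated cells, and H3K9la, H4K8la and H4K16la from cells given 20 mM lactate. A general treatment note names 20 mM lactate for all 6 libraries, whereas the titles and the treatment entry of each sample mark the libraries used here as untreated. The labels give no age, sex, strain, passage or number of animals. With 1 library per group no test between marks was possible and no p-value is given. Intervals are 95% intervals of counting error only. A difference of mark, of antibody and of library cannot be told apart here. The tendon identity of the cells was not checked, because peaks were not assigned to genes here.

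The libraries differed in depth. The genome-wide background coverage recovered from the peak values was 2.17 fragments in H3K9la and 1.32 in H4K8la, a ratio of 1.65. In the lactate libraries of these marks the ratio was 1.21. Deeper coverage lets weaker regions pass as peaks and raises the significance of a peak of given enrichment. Values of the lactate pair are therefore given beside several of the control results. Both control libraries also stood apart from the other 4 in one respect. Peaks in stretches where the local background was over 5 times the genome-wide level made up 7.76% of the H3K9la and 8.19% of the H4K8la control peaks, against 0.107% to 0.820% in the other 4 libraries. Main results are given with and without such dense stretches, an alternative chosen after the data were seen.

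The lists were nearly equal in length, but the H4K8la list held more of the wide and the very significant peaks. The log2 ratio of peak numbers, H4K8la over H3K9la, was −0.01 (−0.03 to 0.00) for all peaks. At a −log10 q of at least 5, where q is the false discovery rate of a peak, there were 19455 H3K9la and 18522 H4K8la peaks, a log2 ratio of −0.07 (−0.10 to −0.04). At 10 or more the order turned, with 3735 H3K9la and 4465 H4K8la peaks and a log2 ratio of 0.26 (0.19 to 0.32). At 20 or more there were 252 and 440 peaks, a log2 ratio of 0.80 (0.58 to 1.03). H4K8la thus had more peaks past these thresholds, while the highest single value, 129 against 122, was in H3K9la. The lactate libraries of the marks had the same order at the top, with log2 ratios of 0.30 at 10 or more (1124 and 1387 peaks) and 0.44 at 20 or more (73 and 99 peaks). Without dense stretches the control log2 ratio was 0.21 at 10 or more (2980 and 3445 peaks) and 0.85 at 20 or more (168 and 302 peaks). If the H3K9la pileups were thinned to the H4K8la depth, 38449 of 58431 H3K9la peaks would be expected to keep a −log10 p of 4, against 56370 in H4K8la, a log2 ratio of 0.55. At a −log10 p of 10 the log2 ratio was 1.62 after thinning. That calculation can only remove H3K9la peaks, since summits below the caller's threshold are not in the list.

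Median widths of the marks were close, and the H4K8la list held more peaks at both ends of the width range. The median width was 500 bp for H3K9la and 494 bp for H4K8la, and the widest peaks were 2914 and 2893 bp. Between 200 and 300 bp there were 1607 H3K9la and 2800 H4K8la peaks. Peaks of at least 1 kb made up 7.68% of H3K9la peaks (4752) and 11.1% of H4K8la peaks (6783). Peaks of at least 1.5 kb made up 0.941% (582) and 2.21% (1357), a log2 ratio of 1.22 (1.08 to 1.36). With lactate the same ratio was 1.47, from 78 and 216 peaks. Without dense stretches it was 1.02 in control, from 422 and 858 peaks. The excess of wide H4K8la peaks was therefore present in both library pairs, and outside dense stretches. Among the 5000 peaks of highest q in each control list, 182 H3K9la and 537 H4K8la peaks reached 1.5 kb, and the median widths were 797 and 961 bp. Together the peaks covered 35.5 Mb in H3K9la and 36.5 Mb in H4K8la.

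**Figure D1:**
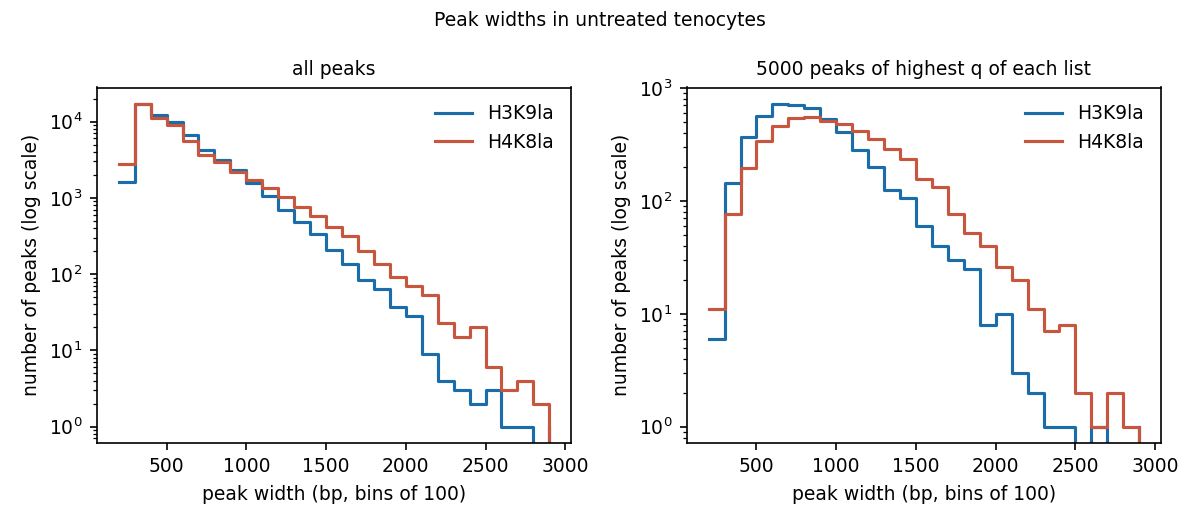
Number of peaks (log scale) by peak width in bins of 100 bp for the untreated H3K9la and H4K8la libraries, for all peaks on the left and for the 5000 peaks of highest q of each list on the right. On the left the curves run close together from about 300 bp to 1 kb and part at both ends, with 1607 H3K9la and 2800 H4K8la peaks between 200 and 300 bp; in the wide tail 582 H3K9la and 1357 H4K8la peaks are at least 1.5 kb wide; on the right the H4K8la curve is shifted to wider peaks.

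The height of peaks over their local background was also greater in the H4K8la control library. The authors' fold per peak, the summit pileup over the local background, had a median of 3.47 in H3K9la (5th to 95th percentile 2.49 to 5.19) and 3.88 in H4K8la (2.85 to 5.95). With lactate the medians were 3.69 and 3.88. The median −log10 q in control was 3.74 and 3.60. The median fold of the top 5000 peaks was 4.99 in H3K9la and 5.84 in H4K8la. A shallower library needs a higher fold to reach the same q, and the part of the depth ratio of 1.65 in this gap was not tested.

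Fewer than 1 in 2 peaks of either mark overlapped a peak of the other by at least 1 bp. The shared peaks numbered 26172 of H3K9la, or 42.3% (41.9 to 42.7) of the list, and 26077 of H4K8la, or 42.5% (42.1 to 42.9). Merged together, the lists gave 96717 regions, of which 25769 (26.6%) held both marks, 35678 H3K9la alone and 35270 H4K8la alone. The bases under peaks of both marks came to 13.1 Mb, which is 37.0% of the H3K9la and 35.9% of the H4K8la peak bases. Shared peaks took in 51.2% of all H3K9la and 53.7% of all H4K8la peak bases, because they were wide. Of the peaks in dense stretches, 63.4% of H3K9la and 64.4% of H4K8la were shared, and without these peaks the percentages were 37.6% and 38.0%. Each list thus held fewer shared peaks than peaks found with 1 mark only, and the shared peaks were wider by median.

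Shared peaks were stronger by median than the others in both lists. Their median width was 627 bp in H3K9la and 662 bp in H4K8la, against 437 and 420 bp for peaks of 1 mark only. Their median −log10 q was 5.24 and 5.31, against 3.05 and 2.90. The median fold was 3.65 and 4.23 for shared peaks and 3.34 and 3.71 for the others. The shared percentage rose in each step of significance. It was 13.1% of H3K9la and 12.8% of H4K8la peaks at a −log10 q under 2, and 66.9% and 69.7% between 5 and 10. From 20 upward it was 99.2% and 98.9%, which leaves 2 H3K9la and 5 H4K8la peaks of that significance without a partner. Sharing also went up with width. It was 22.8% and 21.7% for peaks under 400 bp, and 94.7% and 90.1% for peaks of at least 1.5 kb.

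**Figure D2:**
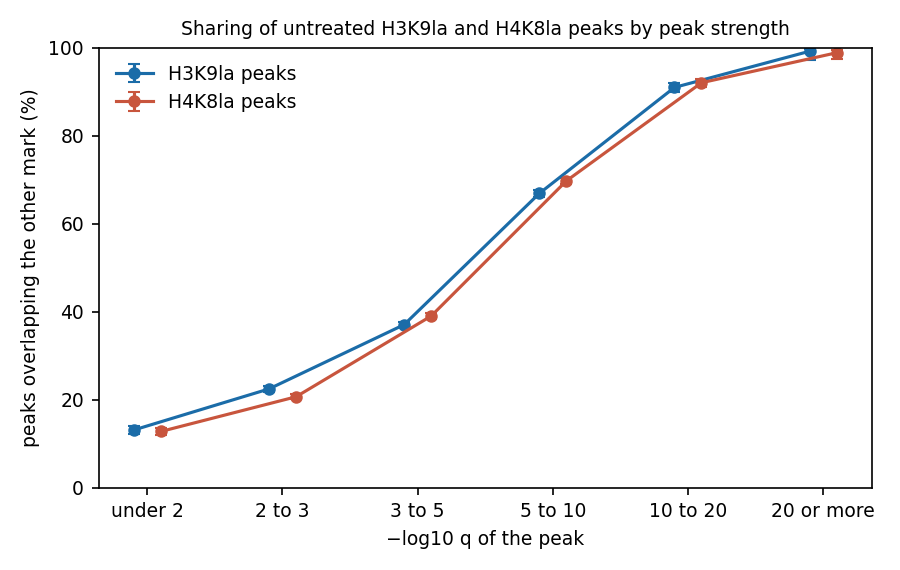
Percentage of peaks that overlap a peak of the other mark by at least 1 bp, by the −log10 q of the peak, for the untreated H3K9la and H4K8la libraries; bars are Wilson 95% intervals. Both marks climb together from 13.1% and 12.8% to 99.2% and 98.9%.

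A strong peak of one mark usually had a partner, but often one short of the same threshold. Of the H3K9la peaks at a −log10 q of at least 10, 91.5% overlapped some H4K8la peak, and 41.2% (1537 peaks) overlapped one that was itself at 10 or more. For H4K8la peaks of that significance the figures were 92.7% and 34.4%. The latter percentage had to be the lower, since it counts a subset of the same partners. Among the 1000 peaks of highest q in each list, 30.6% were shared, and among the top 5000, 39.0%. At 20000 peaks per list the shared percentage was 48.5% for H3K9la and 48.4% for H4K8la.

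How like the marks are can be read only beside the overlaps of each mark with its own second library. The H3K9la control list shared 42.3% of its peaks with the H4K8la control list and 34.3% with the H3K9la lactate list, which is shorter. Among the top 5000 peaks these figures were 39.0% and 40.3%. The H4K8la control list shared 42.5% of its peaks with H3K9la control and 29.6% with H4K8la lactate. Among the top 5000 peaks its overlap was 39.0% with H3K9la control, 48.4% with H4K8la lactate, 45.9% with H4K16la control, 39.2% with H4K16la lactate and 37.8% with H3K9la lactate. Without dense stretches these figures were 35.6%, 43.4%, 41.9%, 36.9% and 34.9%. At equal numbers the overlap of strong H4K8la peaks was thus higher with H4K8la lactate and H4K16la control than with H3K9la control, whereas that with H4K16la lactate was about the same as with H3K9la control. For H3K9la the top 5000 overlapped to nearly the same extent with every list, between 36.2% and 40.3%, and without dense stretches between 35.6% and 39.0%.

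The most significant shared region lay at chr1:154403659-154404083 (rn7). It had a −log10 q of 129 in H3K9la and 122 in H4K8la, with summits 1 bp apart, and a summit pileup of 70.6 times the genome-wide background in H3K9la and 103 times in H4K8la. It was also a peak in the other 4 libraries. So were the next 7 shared regions, ranked by the lower q of the pair. Over all shared H3K9la peaks, 6906 (26.4%) had a peak in all of the other 4 libraries. Among the next 7 regions, chr1:209640248-209641544 and chr3:2252190-2253244 stood in stretches of high signal. Their local backgrounds were 13.5 and 16.7 times the genome-wide level in H3K9la, and 21.5 and 19.2 times in H4K8la. The regions chr12:30809531-30810323 and chr19:22507282-22507969 lay in ordinary surroundings, with local backgrounds of 1.31 and 2.02 times that level in H3K9la and 1.92 and 1.78 times in H4K8la. High significance in both marks was thus reached in dense and in ordinary surroundings.

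At shared peaks the summits of the marks were usually close but not at the same base. The median distance between the summits was 162 bp (159 to 164) over the 26172 shared H3K9la peaks, each taken with its strongest H4K8la partner. It was within 50 bp in 22.3% and within 200 bp in 58.1% of them. The distance shrank with significance, to 126 bp for the 9318 pairs with both −log10 q values at 5 or more and to 91 bp (81 to 99) for the 1537 pairs with both at 10 or more. Over pairs that matched one to one, the distance between H3K9la and H4K8la was 157 bp. It was 140 bp between the H3K9la control and lactate libraries and 161 bp between those of H4K8la. The distance between marks therefore lay within the range seen between libraries of the same mark.

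The level of each mark at shared regions was compared on scales set to the library's own background. Summit enrichment is the summit pileup over the genome-wide background, and window density is the local background around the summit over that same background, never below 1. The local background moved in whole steps, as a count of fragments in a window would, and window density was read on that basis as the signal in the wider surroundings of the peak, the peak included. This reading is inferred from the values. The labels do not say whether an IgG library entered peak calling, and if a control library gave the local background, window density would not measure the mark. Over 25079 one-to-one pairs the median summit enrichment was 11.1 in H3K9la and 13.7 in H4K8la, and it was higher in H4K8la in 72.3%. Over all peaks of each list the medians were 8.31 and 9.87 in control, and with lactate 7.98 and 7.75, so the order of the marks turned. A shallower library needs a higher summit enrichment to pass as a peak. The part of the depth ratio of 1.65 in the control values was not tested. The median log2 ratio of summit enrichment was 0.34 with an SD of 0.58 over pairs, against a median counting SD of 0.45. Most of the scatter in summit enrichment was therefore of the size that counting gives, and 21.2% of pairs lay past 2 counting SD. Window density rested on more fragments. Its medians were 2.48 and 2.62, and its log2 ratio had a median of 0.00, an SD of 0.56 and a median counting SD of 0.17. By window density 56.2% of pairs lay past 2 counting SD, a share that goes with its smaller counting SD, since the SD over pairs was nearly that of summit enrichment. Counting SDs do not hold the spread between libraries, which was not measured. Across the pairs Pearson's r between the marks was 0.74 for log2 window density and 0.59 for log2 summit enrichment; the pairs share their 2 libraries and are no independent replicates.

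Shared regions whose window density differed by at least 2-fold were a minority on both sides. The density was at least 2-fold higher in H3K9la at 582 pairs, or 2.32% of all pairs, and at least 2-fold higher in H4K8la at 1173 pairs, or 4.68%. The H4K8la-leaning regions were wide in that mark. Their median H4K8la width was 1052 bp and their median H3K9la width 660 bp, and their median densities were 4.16 in H4K8la and 1.84 in H3K9la. The H3K9la-leaning regions had median widths of 726.5 bp in H3K9la and 549.5 bp in H4K8la, with densities of 4.80 and 2.08. Significance moved with the classes. The median −log10 q of the H4K8la peak was 10.0 in H4K8la-leaning, 4.23 in H3K9la-leaning and 5.19 in the remaining pairs, and that of the H3K9la peak 5.46, 6.67 and 5.24. These classes also differed in the libraries that had no part in their choice. A peak of H4K8la with lactate was present at 81.5% of the H4K8la-leaning, 37.5% of the H3K9la-leaning and 52.6% of the remaining pairs. For H3K9la with lactate the figures were 68.1%, 60.7% and 57.4%. For H4K16la without lactate they were 78.0%, 37.6% and 52.7%, and for H4K16la with lactate 76.4%, 47.3% and 60.2%. The H4K8la-leaning pairs thus had the highest figure in each of these libraries. Presence in H4K16la control also went with significance alone, from 53.7% of all shared H4K8la peaks to 88.5% of those at a −log10 q of at least 10, and the part of significance in the class figures was not tested.

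The lean of a region toward one mark was compared with that in the lactate libraries, which share no sample with the control pair. At 9500 regions with one-to-one peaks in all 4 libraries of both marks, the log2 density ratio of H4K8la over H3K9la in control and in lactate gave Pearson's r of 0.76 and Spearman's rho of 0.77 across regions. Without regions in dense stretches of a control library r was 0.72. The same correlation for summit enrichment was 0.46, and the median log2 ratio of summit enrichment was 0.50 in control and 0.15 with lactate. Of the 164 such regions at least 2-fold toward H3K9la in control, 162 (98.8%, 95.7 to 99.7) leaned the same way with lactate. Of the 703 toward H4K8la, 680 (96.7%) did. Of the remaining 8633 regions, within 2-fold in control, 6611 (76.6%) also kept the sign. The lean past 2-fold was smaller with lactate on both sides. The median log2 ratio went from −1.15 in control to −0.78 with lactate in the class toward H3K9la. It went from 1.13 to 0.45 in the class toward H4K8la. Classes chosen for an extreme value in one pair are expected to lie nearer the middle in another, and the median over all 9500 regions was 0.20 in control and 0.00 with lactate.

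**Figure D3:**
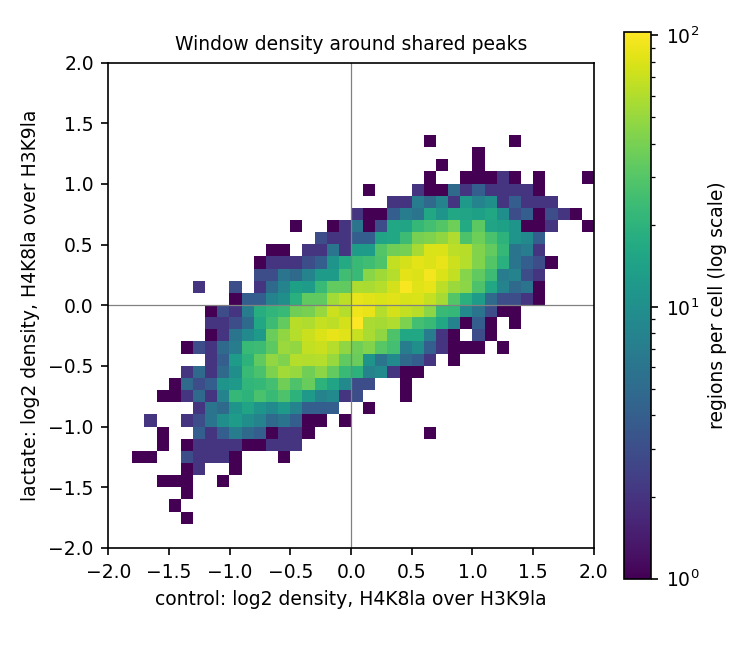
Log2 ratio of window density, H4K8la over H3K9la, in the control libraries (horizontal axis) and the lactate libraries (vertical axis) at 9500 regions with one-to-one peaks in all 4 libraries; colour gives the number of regions per cell of the grid on a log scale. The regions form an oblique cloud, with r of 0.76, that is longer on the control axis (SD 0.58) than on the lactate axis (SD 0.40).

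Across 6400 regions with peaks in all 6 libraries, log2 window density of the H3K9la control library was most like that of H3K9la with lactate. Pearson's r was 0.87 with H3K9la lactate, 0.66 with H4K8la control, 0.55 with H4K16la control, 0.54 with H4K8la lactate and 0.48 with H4K16la lactate. The H4K8la control library was most like H4K8la with lactate, at 0.82, followed by H4K16la control at 0.77, H3K9la lactate at 0.69 and H3K9la control at 0.66, and was least like H4K16la lactate at 0.60. The H3K9la and H4K8la control libraries were thus each closest to the second library of their own mark. The mark was not the only order in these values, since H4K8la lactate had a higher r with H4K16la control, 0.85, than with H4K8la control. The H4K16la control library was in turn no closer to H4K16la lactate, at 0.84, than to H4K8la lactate. These values are given as a description of these 6 libraries.

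Single regions gave the size of these differences at the extremes. The 5 pairs most tilted by summit enrichment on either side were taken from the 9318 pairs with both −log10 q values at 5 or more. At chr3:156472815-156473825 the summit pileup was 144 fragments in H3K9la and 32 in H4K8la, and the log2 enrichment ratio was −1.45 with a counting SD of 0.28. With lactate it was −1.59, so this region kept its lean toward H3K9la. At chr1:31855481-31856538 the pileups were 86 and 18, and the log2 ratio was −1.54 in control and −0.67 with lactate. At chr15:7607658-7608289 the ratio was −1.34 and −1.26, and at chr10:85274468-85275503 it was −1.31 and −0.89. The last of them, chr1:164915701-164916408, had a ratio of −1.41 and no H4K8la peak with lactate. All 4 of these regions that could be followed kept the sign. The share of all pairs that kept the sign by summit enrichment is not given here.

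Toward H4K8la, chr7:12667742-12668421 had pileups of 15 in H3K9la and 45 in H4K8la and the highest log2 ratio, 2.30 with a counting SD of 0.43. With lactate its ratio was 0.75. At chr4:103879682-103880990 the pileups were 24 and 64 and the ratio was 2.13 in control and 1.04 with lactate. At chr4:120932100-120933470 the ratio was 2.09 and 1.60. The others, chr1:184165051-184166332 and chr5:130009492-130010592, had ratios of 2.13 and 2.10 in control and 0.64 and 0.41 with lactate. All 5 kept the sign, each with a smaller ratio, and all 5 were peaks in all 6 libraries. Smaller ratios are expected of pairs picked for extreme control values. Over the 9500 regions above, the median log2 ratio of summit enrichment also went from 0.50 in control to 0.15 with lactate. A ratio toward H4K8la was thus common with lactate in any case. Of the 5 pairs most tilted toward H3K9la, 3 were peaks in all 6. Over all shared H3K9la peaks, 26.4% had a peak in all of the other 4 libraries.

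Peaks of 1 mark only were mostly weak, and most were not found again. Of the 35678 H3K9la-only peaks 75.7% had no peak in either lactate list of these marks, and of the 35270 H4K8la-only peaks 80.2%. The H3K9la-only peaks overlapped the H3K9la lactate list in 17.1% (16.7 to 17.5) and the H4K8la lactate list in 11.1% (10.8 to 11.5). The H4K8la-only peaks overlapped them in 12.0% and 11.6%. Between these lactate lists, strong peaks were found more in the list of their own mark. Of the 316 H3K9la-only peaks at a −log10 q of at least 10, 56.3% were in the H3K9la and 37.3% in the H4K8la lactate list. Of the 325 H4K8la-only peaks of that significance, 46.5% were in the H3K9la and 61.8% in the H4K8la lactate list. Without dense stretches these figures were 57.1% and 40.2% for 261 H3K9la-only peaks and 50.2% and 62.9% for 267 H4K8la-only peaks. The own mark was not always the highest of all lists. H4K16la lactate, the longest list, held 58.5% of the strong H3K9la-only peaks and 21.6% of all H3K9la-only peaks. It held 49.8% of the strong and 15.9% of all H4K8la-only peaks, and at a −log10 q of at least 5 it held 33.0% of them, against 31.5% in H4K8la lactate.

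The same comparison was made on the peaks present in just 1 of the lactate lists. That one was H3K9la for 64.8% (63.6 to 65.9) of such H3K9la-only peaks, and for 71.1% (63.2 to 77.9) of those at a −log10 q of at least 10. It was H3K9la for 51.1% (49.8 to 52.4) of such H4K8la-only peaks, and for 31.1% (23.8 to 39.4) at 10 or more. The H3K9la lactate list is the longer, and for shared peaks of any significance the figure was 55.9% in both control lists. At a −log10 q of at least 10 it was 65.4% (61.7 to 68.9) for shared H3K9la peaks and 39.8% (36.1 to 43.5) for shared H4K8la peaks. Among strong peaks, shared and mark-only peaks thus leaned the same way, and their intervals overlapped. When both lactate lists were held to their top 40000 peaks, H3K9la-only peaks overlapped them in 15.2% and 10.6%, and H4K8la-only peaks in 10.5% and 11.2%, so the order for H4K8la-only peaks depended on list length.

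**Figure D4:**
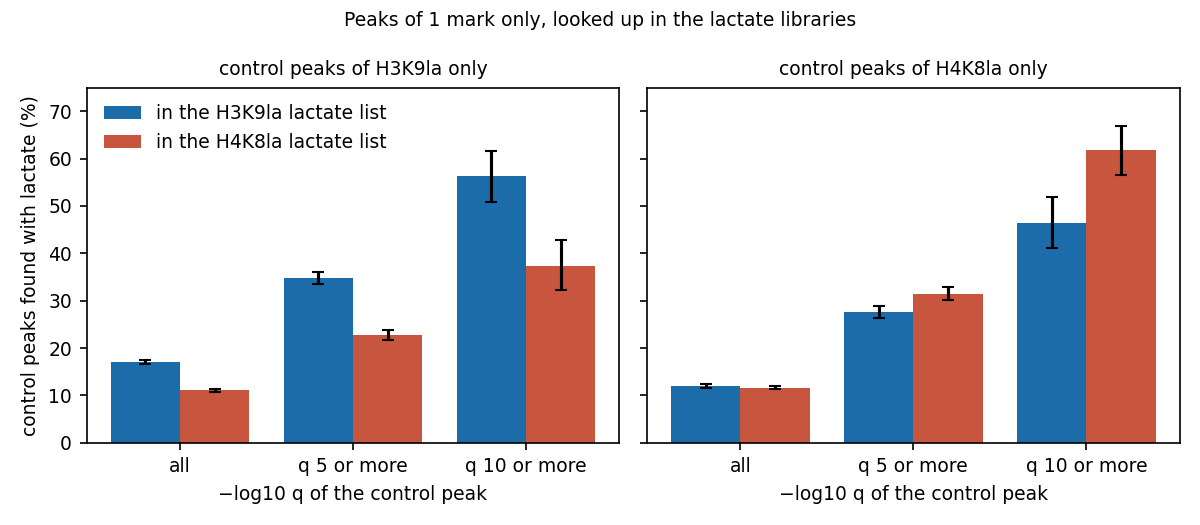
Percentage of control peaks found with 1 mark only that overlap a peak of the H3K9la (blue) or H4K8la (red) lactate list, for all such peaks and for those at a −log10 q of at least 5 and 10; bars start at 0 and whiskers are Wilson 95% intervals. At 10 or more, H3K9la-only peaks reach 56.3% and 37.3%, and H4K8la-only peaks 46.5% and 61.8%.

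The 8 most significant peaks of each mark only were followed across all libraries. The first H3K9la-only peak was chr1:205978630-205978974, 345 bp wide, with a −log10 q of 75.9, a fold of 8.47 and a summit pileup of 65.5 times the background. With lactate the H3K9la value there was higher still, at a −log10 q of 209.8 and 166.5 times the background, and no H4K8la peak overlapped it in either condition. H4K16la had a weak control peak at that place, with a −log10 q of 2.51. The H3K9la-only peak chr4:160476949-160477945 was 46105 bp from the nearest H4K8la peak. It had a −log10 q of 18.2 in control and 14.8 with lactate, and H4K16la was at 19.0 and 17.7 there. Of the 8 H3K9la-only peaks, 5 were in the H3K9la and 1 in the H4K8la lactate list.

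The first H4K8la-only peak, chr2:73364903-73365370, had a −log10 q of 25.8 and a fold of 13.2 and was a peak in no other library. The same was so of chr13:43770845-43771550, at a −log10 q of 21.3, which lay 807 bp from an H3K9la peak. The remaining 6 were in the H4K8la lactate list, and 3 of the 8 were in the H3K9la lactate list. Among them chr18:82220933-82221406 had a −log10 q of 20.4 in control and 15.6 with lactate in H4K8la, and 3.25 with lactate in H3K9la. The widest, chr17:47026768-47028488 at 1721 bp, had a −log10 q of 19.6 in control and 4.61 with lactate in H4K8la and 2.53 with lactate in H3K9la. So 2 of the 8 strongest H4K8la-only peaks, and none of the 8 H3K9la-only peaks, were private to 1 library. The share of all mark-only peaks private to 1 library is not given here. No difference between the marks is read from these 8 peaks a side.

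Most peaks of 1 mark only lay several kb from the other mark. Their median gap to the nearest peak of the other mark was 8702.5 bp for H3K9la-only and 9474 bp for H4K8la-only peaks, and 10.2% and 11.5% lay within 1 kb. These gaps were near the ordinary spacing of peaks. The median gap between a peak and the nearest peak of its own list was 8716 bp in H3K9la and 9667 bp in H4K8la. Of the 316 and 325 strong mark-only peaks at a −log10 q of at least 10, 31 and 51 lay within 1 kb. Most strong mark-only peaks were thus no near misses of a neighbouring peak.

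The chromosomes held nearly the same share of both lists, except the X chromosome. The log2 ratio of the share of H4K8la peaks over that of H3K9la peaks lay between −0.08 (chromosome 17) and 0.08 (chromosome 12) on the autosomes. On chromosome 19, the next autosome by size of the difference, it was −0.06. On X it was 0.56 (0.45 to 0.68), from 954 H3K9la peaks (1.54%, 1.45 to 1.64) and 1399 H4K8la peaks (2.28%, 2.17 to 2.40). With lactate the X ratio was 0.67, with 1.84% of H3K9la and 2.92% of H4K8la peaks. H4K16la had 2.48% of its control and 2.41% of its lactate peaks on X, so both H3K9la libraries lay below the libraries of the H4 marks. Sharing was lower on X, at 35.4% of H3K9la and 24.3% of H4K8la peaks, against 42.4% and 42.9% on the autosomes. X peaks were rare among strong ones, with 21 and 40 among the top 5000 of each list and 5 in each among the top 1000, where the shares did not differ. At a −log10 q of at least 10, X held 0.321% (12) of H3K9la and 0.761% (34) of H4K8la control peaks. With lactate the shares at that threshold were alike, at 0.801% (9) and 0.793% (11), so the X difference was not seen there. The Y chromosome held 5 and 8 peaks, too few to compare.

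**Figure D5:**
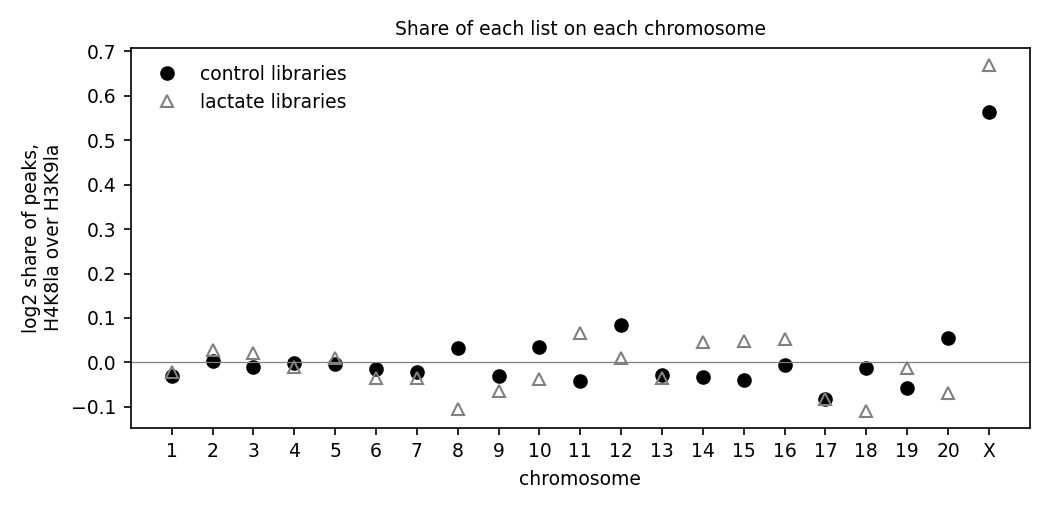
Log2 ratio of the share of H4K8la peaks over the share of H3K9la peaks on each chromosome, in the control libraries (filled circles) and the lactate libraries (open triangles); Y is left out for its 5 and 8 control peaks. The autosomes lie near 0 and X at 0.56 in control and 0.67 with lactate.

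At 1 Mb scale the marks followed each other. Over 2564 windows the numbers of H3K9la and H4K8la peaks had Pearson's r of 0.94 and Spearman's rho of 0.95, given as a description, since windows share both libraries. Of 1805 windows with at least 20 peaks, 25 (1.39%) had over 2-fold more H4K8la peaks and 4 (0.222%) over 2-fold more H3K9la peaks. The ratio of a window was taken after 1 was added to both of its numbers. The window at chr5:163000001-164000000 had 3 H3K9la and 18 H4K8la peaks in control, but 10 and 8 with lactate. At chrX:120000001-121000000 the numbers were 5 and 16 in control and 5 and 9 with lactate. The window at chr7:94000001-95000000 went the other way, with 36 H3K9la and 13 H4K8la peaks in control and 17 and 12 with lactate. The others of the 5 most unlike windows, chr2:222000001-223000000 and chr8:26000001-27000000, both had 5 and 15 peaks in control. With lactate they had 10 and 15, and 7 and 9. Of these 5 windows, picked for extreme control ratios, 4 kept their direction with lactate. The share of all windows that did so is not given here.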

How the data were processed

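Each of the 6 libraries has its own deposited narrow peak list, so peaks were not called on pooled samples. The submitters' processing notes name MACS2, Bowtie2, cutadapt, FastQC and deepTools and the build rn7. For their settings, versions and any use of an IgG library, no statement was found in the labels. The deposited score column was not used. The authors' fold column is a ratio of pileup to local background at the summit, and the authors' −log10 p and −log10 q are the peak caller's statistics. The lowest deposited q threshold was 0.05.

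Peaks were shared where they overlapped by at least 1 bp. Fold was read as (pileup + 1) over (local background + 1) and p as the upper Poisson tail, and the whole pileup was taken that fitted within 0.002 of −log10 p. A library's genome-wide background was its commonest local background. That local backgrounds are whole counts of fragments in a window of fixed size (within 0.02 of a step) was inferred from the values, and the labels do not state the window size. The recovery was tested on simulated data.

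Shares have Wilson intervals, and medians have binomial order intervals. PCR copies and overlapping fragments are not independent molecules, and the intervals count them as if they were. Alternatives were stricter q, equal numbers of top-q peaks, other overlap rules and depth matching. Named were the 8 peaks of highest q of each mark only, the 8 shared regions with the highest lower q, the 5 pairs most tilted by summit enrichment on each side, and the 5 most unlike chromosomes and windows. The members and lists were chosen with earlier results of these data known. Gene lists, tenocyte markers and sequences were not analysed here, because the tables at hand are of another build. Python 3.11.15, numpy 2.4.6, pandas 2.3.3, scipy 1.17.1 and matplotlib 3.10.9 were used.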

Additional observations from a re-analysis of the deposited data

How the results depend on the processing

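With 1 library a side no result had a threshold of a test. Several orders between the marks turned: that of peak numbers, that of the lactate lists for H4K8la-only peaks, and those of the median width (500 and 494 bp as deposited, 868 and 1008 bp among the top 1000) and the median −log10 q (3.74 and 3.60, then 17.1 and 19.2). The percentage shared (H3K9la, then H4K8la) was 47.9% and 50.2% at a −log10 q of at least 5, 41.2% and 34.4% at 10, 30.6% for both among the top 1000 peaks, 39.0% for both among 5000, 48.5% and 48.4% among 20000, and 48.4% and 48.3% among 40000. It was 37.9% and 38.0% with an overlap of 50% of the shorter peak, 40.3% and 40.7% with centres within 500 bp, and 37.6% and 38.0% without dense stretches. Without X and Y it was 42.9% for H4K8la. The log2 ratio of peak numbers was −0.071 at 5, 0.26 at 10, 0.041 by covered bases, and 0.55 and 1.62 after depth matching. The median summit distance was 126 bp at 5, 91 bp at 10, 73.5, 94, 127 and 150 bp among the top 1000, 5000, 20000 and 40000, 148 bp with an overlap of 50% and 157 bp one to one. Presence with lactate at a −log10 q of at least 5 was 34.7% (H3K9la list) and 22.8% (H4K8la list) for H3K9la-only peaks and 27.6% and 31.5% for H4K8la-only peaks; with lists of 40000 it was 15.2%, 10.6%, 10.5% and 11.2%. The correlation of density lean was 0.78 at 5, 0.77 without peaks at the background and 0.72 without dense stretches. The X ratio was 1.24 (0.30 to 2.19) at 10, from 12 and 34 control peaks, and 0.93 (0.17 to 1.69) among the top 5000. Among the top 1000 each list had 5 peaks on X. Of 30 medians recomputed for width, fold and q, 24 moved beyond their interval, all of them where only top-q peaks were kept. Keeping the peaks of highest q raises the median −log10 q by construction. The 6 medians without X and Y stayed within their interval. The cause of the other changes was not tested. No paired analysis was possible because each group has 1 library and no result comes from a test.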
